A study of Mus musculus with 15 samples.

Results

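Atp6v0d2, Dcstamp, Ocstamp, Acp5 and Ctsk were followed in RNA from end-stage mouse glioblastoma tumors and naïve brain. The 5 genes are a set named for osteoclasts and lysosomes, and were found among the 46679 genes of the files by matching the gene identifiers to GENCODE symbols. The set was chosen by its lead gene, Atp6v0d2, which was selected on its large rise in 005 tumors in these same samples. All comparisons of the 5 genes with 005 are therefore given as descriptions, without a test. The main tests without 005 are not free of that choice, because their spread estimate and low-count filter used all 15 libraries. Each of 5 groups held 3 C57BL/6 mice, 15 samples in all, and the tumor-bearing mice were 6 to 8 weeks old at implantation. CT2A and GL261 are chemically induced lines and received 100000 cells per mouse. 005, derived from tumors of genetically altered mice, was also given as 100000 cells, and Mut3, of the same kind of origin, as 500000 cells. All implanted lines carried a retroviral GFP and firefly luciferase marker that naïve brain lacks, each model is a single line, and the brains were perfused before the whole tumor tissue was taken. In such bulk tissue, fewer cells of a type and less RNA per cell cannot be told apart.

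Osteoclasts are multinucleated bone-resorbing cells of the macrophage lineage. They form by fusion of precursors under CSF1 and RANKL, seal off a patch of bone, acidify it with a vacuolar proton pump (V-ATPase) and digest the matrix with secreted lysosomal enzymes. Most of this machinery is shared with other macrophages, which use the pump and the enzymes inside their own lysosomes. Atp6v0d2 encodes the d2 subunit of the membrane sector V0 of the pump, an isoform of restricted expression beside the ubiquitous d1 subunit, Atp6v0d1. Dcstamp and Ocstamp encode transmembrane proteins required for the fusion of precursors. Acp5 encodes tartrate-resistant acid phosphatase, the classical histochemical marker of osteoclasts, which is also made by activated macrophages. Ctsk encodes cathepsin K, the main collagen-degrading protease of osteoclasts, also made by fibroblasts.

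On GRCm38 (mm10), the genes lie on 5 chromosomes. Atp6v0d2 (ENSMUSG00000028238) is at chr4:19876841-19922605 on the minus strand and Dcstamp (ENSMUSG00000022303) at chr15:39745930-39760938 on the plus strand. Ocstamp (ENSMUSG00000027670) is at chr2:165393760-165400405 on the minus strand, and Acp5 (ENSMUSG00000001348) at chr9:22126727-22135711 on the minus strand. Ctsk (ENSMUSG00000028111) is at chr3:95499256-95509362 on the plus strand.

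The total estimated count of a library ranged from 3105119 to 5161132 in naïve brain and from 5380395 to 13130158 in the tumors, so low genes were measured least precisely in naïve brain. 005 replicate 3 stood apart from the other tumors. Its 7 neuron and oligodendrocyte markers summed to 6759 CPM (counts scaled to the TMM-normalized library size), against 5306 to 6698 in naïve brain and 482 and 927 in the other 005 libraries. 005 replicate 2 held 11194 CPM of the 9 macrophage markers, against 1789 and 2325 in the other 005 libraries. The TPM scale, which adjusts for gene length, lay below the CPM scale by 0.98 (CT2A), 0.81 (GL261), 0.60 (005) and 0.82 (Mut3) log2 units relative to naïve brain. These are group means of 1 factor per library, which in 005 ran from −0.90 to −0.12, so the shift of a gene's fold depends on which libraries hold its counts.

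Atp6v0d2 was absent from naïve brain, near 0 in CT2A and GL261, low in Mut3 and highest in 005. The estimated counts were 0 in all the naïve libraries, 5.02, 0 and 1.92 in CT2A replicates 1 to 3, and 0, 10.1 and 12.6 in GL261. In Mut3 the counts were 30.6, 14.8 and 28.8, and in 005 they were 94.0, 531 and 116. No Mut3 library overlapped those of naïve brain, CT2A or GL261, and no 005 library overlapped any other group, which is the property the gene was chosen for. Separations of 3 against 3 libraries, here and for the other genes below, are descriptions. The share of all genes that separate in the same way is not given.

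In CPM, the mean of Atp6v0d2 was 27.3 ± 31.8 in 005, 2.64 ± 0.794 in Mut3, 1.06 ± 0.922 in GL261 and 0.290 ± 0.307 in CT2A (SD, n = 3 each). The spread in 005 exceeded its mean because replicate 2 held 64.1 CPM, 6.62-fold above the next library of the same tumor. Replicate 2 was also the library with the highest macrophage markers, whose part in the value was not tested. On TPM, Atp6v0d2 passed 1 in a single library of the 15, 005 replicate 2 (3.66), while Mut3 libraries reached at most 0.188.

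Because all naïve libraries were at 0, folds against naïve brain are lower bounds, taken against a floor of 3 counts over the group (0.238 CPM, counting error only). Over the group, Atp6v0d2 was at least 11.0-fold higher in Mut3, and this was called by edgeR's quasi-likelihood test (Benjamini-Hochberg adjusted p = 0.0139 over 17481 genes). To be called, a gene had to reach an adjusted p below 0.05 with a log2 difference of 1 or more in either direction. On log2(TPM + 1) with limma the Mut3 value was 0.19 with an adjusted p of 0.614, a scale on which a gene this low can hardly move, and over all the alternatives the adjusted p ran from 5.5e-04 to 0.614. The rise of at least 4.95-fold in GL261 was not called (edgeR adjusted p = 0.0685, from 0.0147 to 0.817 over the alternatives). It was called without 005 replicate 2 (edgeR adjusted p = 0.0337), with no filter on low counts (0.0312) and with DESeq2 (0.0147). The counts of CT2A, at least 1.30-fold above the floor, gave an edgeR adjusted p of 0.214. These p-values drew on the spread within 005, whose values the gene was chosen for. As a description, 005 was at least 97.3-fold above naïve brain over the group. It was 8.82-fold above Mut3, 19.6-fold above GL261 and 74.6-fold above CT2A in pooled CPM. Without 005 replicate 2 it was at least 37.2-fold above naïve brain and 3.38-fold above Mut3, and without 005 replicate 3 at least 146-fold and 13.2-fold.

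Between tumors without 005, the difference of Atp6v0d2 between CT2A and Mut3 was −3.05 ± 1.13 on the log2 scale (SE) and was not called (edgeR adjusted p = 0.0938). It was called with DESeq2 (adjusted p = 0.0319), with no filter on low counts (0.0400) and when only those 6 libraries were fitted (0.0235). Over all the alternatives this adjusted p ran from 0.0235 to 0.850. GL261 against Mut3 gave −1.23 ± 0.99 and CT2A against GL261 −1.82 ± 1.18 (SE), with edgeR adjusted p of 0.415 and 0.368.

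**Figure D1:**
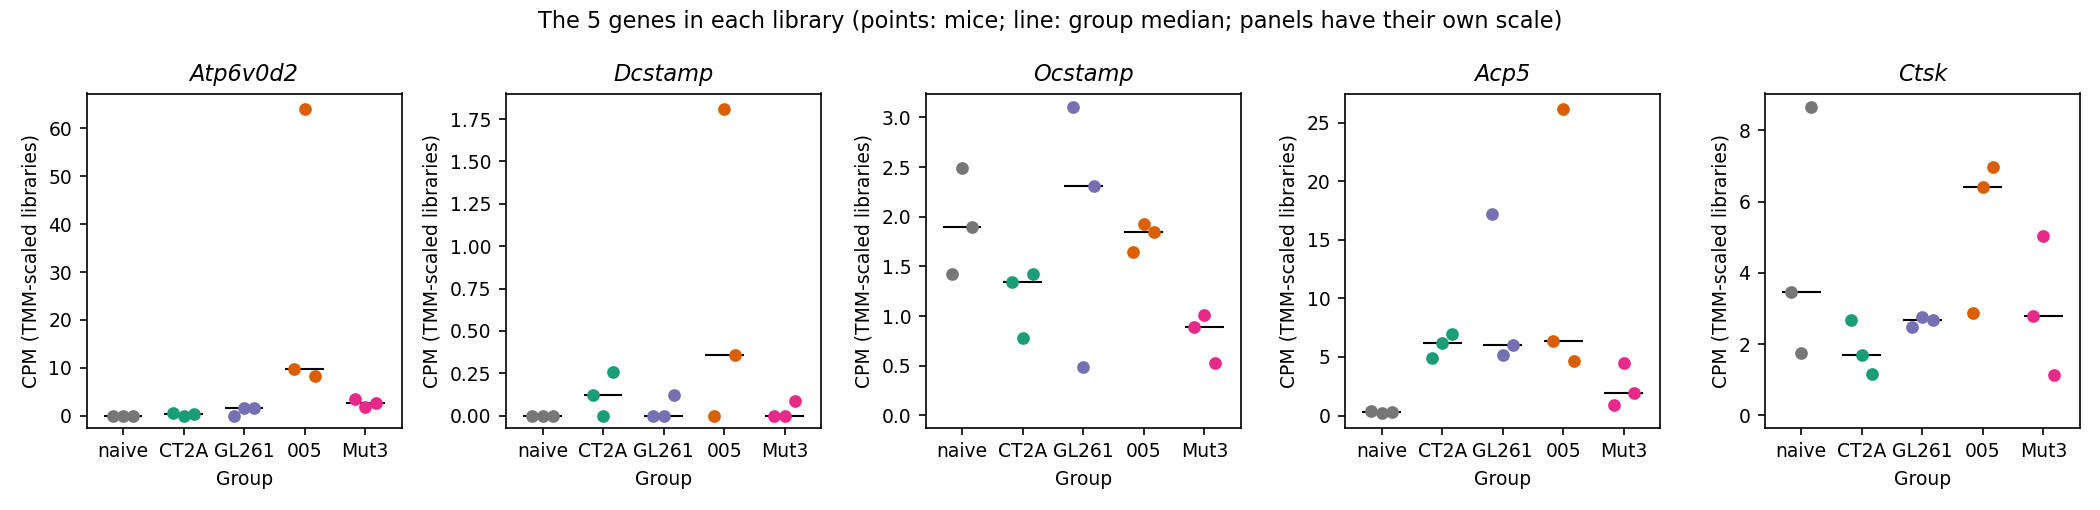
CPM on TMM-scaled libraries of the 5 genes in each mouse (points), by group, with the group median as a line and a separate linear axis for each gene. Atp6v0d2, Dcstamp and Acp5 have their highest point in 005 replicate 2 (64.1, 1.81 and 26.2 CPM), whereas Ocstamp is highest in GL261 replicate 1 (3.11 CPM) and Ctsk in naïve replicate 3 (8.65 CPM).

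The d2 subunit was set beside d1, which occupies the same place in the pump. On TPM, Atp6v0d1 ranged from 33.7 to 87.4 in naïve brain, 3.72 to 9.32 in CT2A, 6.14 to 14.4 in GL261, 5.99 to 40.0 in 005 and 7.16 to 12.4 in Mut3. The ubiquitous isoform thus exceeded d2 in each of the 15 libraries. Atp6v0d1 fell against naïve brain in CT2A (−2.27 ± 0.50), GL261 (−1.58 ± 0.49) and Mut3 (−1.65 ± 0.49, log2 fold change ± SE), with edgeR adjusted p of 0.00387, 0.0323 and 0.0158. In 005 its value was −1.28 ± 0.48 and was not called (edgeR adjusted p = 0.0931).

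The share of d2 in the summed TPM of d1 and d2 was 7.77%, 34.5% and 1.82% in 005 replicates 1 to 3. It was 1.49%, 1.06% and 1.89% in Mut3, at most 0.892% in GL261 and at most 0.372% in CT2A. The Mut3 shares lay above those of all GL261 and CT2A libraries, and the share of 005 replicate 3, the library with the high neuronal and oligodendrocyte markers, lay within the range of Mut3.

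**Figure D2:**
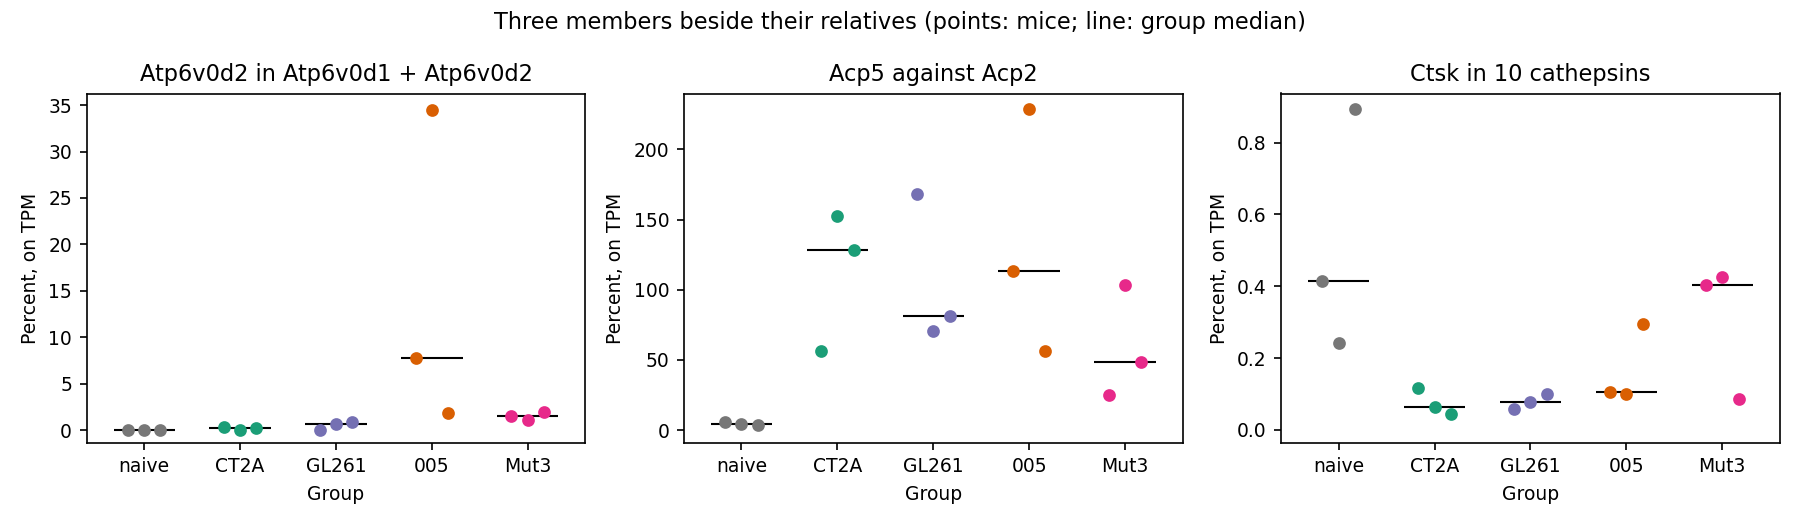
Share of Atp6v0d2 in Atp6v0d1 plus Atp6v0d2, Acp5 as a percent of Acp2, and share of Ctsk in 10 cathepsins, all on TPM, for each mouse (points) with the group median as a line. The d2 share reaches 34.5% in 005 replicate 2, Acp5 rises from at most 5.58% of Acp2 in naïve brain to at least 25.2% in the tumors, and Ctsk stays below 0.9% of the cathepsins.

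Of the 10 tested subunits of the V1 sector, which hydrolyses ATP, 7 fell in CT2A, 6 in GL261, 8 in Mut3 and 2 in 005. Beside these stand 20.2% (CT2A), 7.77% (GL261), 19.8% (Mut3) and 1.05% (005) of all genes tested that were called lower. The largest falls were those of Atp6v1g2, the G subunit known from neurons, by 3.28 ± 0.72 in CT2A, 2.03 ± 0.68 in GL261 and 5.31 ± 0.80 in Mut3 (log2, SE). Neuron and oligodendrocyte markers also fell, with 5 of 7 lower in CT2A (1 without CT2A replicate 2 and 2 without CT2A replicate 3) and 7 of 7 in Mut3. None of the 7 was called lower by edgeR in GL261 or 005, but 7 were in 005 without 005 replicate 3, and in GL261 3 were without 005 replicate 2 and 4 without 005 replicate 3. The part of these cells in the falls of the pump was not tested.

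Of the other 11 genes of the V0 sector and its accessory proteins, 2 rose and 7 fell in CT2A, 1 rose and 4 fell in GL261, 1 rose and 6 fell in Mut3, and 3 rose and 1 fell in 005. Of all genes tested, 19.0% (CT2A), 14.6% (GL261), 17.9% (Mut3) and 11.6% (005) were called higher. Atp6v0e rose in all the tumors, by 1.72 ± 0.38 (CT2A), 2.83 ± 0.39 (GL261), 1.77 ± 0.38 (005) and 2.79 ± 0.39 (Mut3, log2, SE), with edgeR adjusted p between 0.000322 and 0.00749. Tcirg1, the a3 subunit of the osteoclast and lysosome pump, rose in CT2A (2.46 ± 0.59) and 005 (2.05 ± 0.59) and had values of 1.60 ± 0.59 in GL261 and 1.49 ± 0.59 in Mut3 (log2, SE). The edgeR adjusted p of Tcirg1 was 0.00580, 0.0336, 0.0606 and 0.0551 in that order. Atp6v0a2, the a2 subunit, was the other gene that rose in 005 (1.70 ± 0.42, SE; edgeR adjusted p = 0.0159), where it was 35.2, 54.0 and 103 CPM in replicates 1 to 3. The 005 calls rested on single libraries. Without 005 replicate 3, 7 of the V1 and 5 of the V0 genes were lower in 005. The V1 falls were lost without any other single library except naïve replicate 2. The V0 fall was lost without naïve replicate 1 or 3, CT2A replicate 3, any GL261 library, 005 replicate 1 or 2, or Mut3 replicate 1 or 2, and numbered 4 without naïve replicate 2. DESeq2 called 4 V1 falls in 005, log2(TPM + 1) with limma 7, and the fit of only those samples none. The V0 rises in 005 numbered 1 without naïve replicate 1, while those in GL261 and Mut3 numbered 2 without 005 replicate 2 or 3, and those in Mut3 also without Mut3 replicate 3. The V1 falls in GL261 numbered 1, 3, 0 and 1 without naïve replicate 1, naïve replicate 3, GL261 replicate 1 and GL261 replicate 3. The V0 falls in GL261 numbered 1, 2, 1 and 1 without the same libraries. The V0 falls in CT2A numbered 2 without CT2A replicate 2, and 3 without GL261 replicate 1, Mut3 replicate 1 or Mut3 replicate 3.

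The fusion genes were barely detected. Dcstamp had estimated counts of 0, 14.9 and 4.92 in 005 replicates 1 to 3 and at most 1.99 in any other library, with 9 of 15 libraries at 0. It failed the filter on low counts, so 4 of the 5 genes were tested. Over the group, Dcstamp in 005 was at least 2.60-fold above the naïve floor as a description, and in CT2A, GL261 and Mut3 it was at or under the floor of 3 counts, where no fold was computed.

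Ocstamp was found at a low level in all 15 libraries, brain included. Its counts were 6.63, 10.1 and 6.77 in naïve brain, 11.4, 5.39 and 11.2 in CT2A, and 15.1, 2.58 and 18.9 in GL261. They were 16.3, 16.2 and 26.4 in 005 and 8.18, 7.80 and 6.14 in Mut3. Scaled to the library, the CPM of CT2A (0.776 to 1.42) and of Mut3 (0.528 to 1.01) lay below all the naïve libraries (1.43 to 2.49), while GL261 (0.485 to 3.11) and 005 (1.65 to 1.93) overlapped them.

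None of the Ocstamp differences from naïve brain was called. The log2 fold change was −0.70 ± 0.64 in CT2A, 0.02 ± 0.64 in GL261 and −1.25 ± 0.65 in Mut3 (SE), with edgeR adjusted p of 0.400, 0.988 and 0.141. The sign in GL261 changed under 4 other settings and with several libraries left out. On log2(TPM + 1) with limma the adjusted p was 0.0391 in CT2A and 0.0254 in Mut3, with differences of −0.23 and −0.26, both too small for a call. In 005 the value was −0.09, as a description.

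Partners of these proteins in macrophage fusion were better expressed. Cd44, a hyaluronan receptor, rose in Mut3 (2.21 ± 0.51), GL261 (3.21 ± 0.52), 005 (4.24 ± 0.55) and CT2A (4.88 ± 0.56, log2, SE). The tetraspanin Cd9 rose in all the tumors too, by 1.75 to 2.49. Sirpa, the receptor of Cd47, fell by 2.63 ± 0.40 in CT2A, 1.41 ± 0.39 in GL261 and 3.66 ± 0.42 in Mut3. Bulk tissue does not show which cells made these RNAs. In Mut3, 0 of 9 macrophage markers were called higher and 7 of 7 neuron and oligodendrocyte markers were called lower by edgeR. The part of any cell type in the changes of Cd44, Cd9 and Sirpa was not tested. Of the 8 genes listed, 3 rose and 1 fell in CT2A, 2 rose and 1 fell in GL261, 3 rose and 1 fell in Mut3, and 4 rose in 005. Beside the rises stand the shares of all genes tested that were called higher, 19.0% (CT2A), 14.6% (GL261), 17.9% (Mut3) and 11.6% (005), and beside the falls 20.2% (CT2A), 7.77% (GL261) and 19.8% (Mut3). The 005 count was 2 without naïve replicate 1, naïve replicate 3 or 005 replicate 2, the GL261 count of rises was 4 without Mut3 replicate 3, and its fall was lost without naïve replicate 2 or GL261 replicate 1. The CT2A count of falls was 2 without CT2A replicate 1.

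Acp5 was the member called higher in every tumor tested (CT2A, GL261 and Mut3), although the Mut3 call depended on single libraries. Its estimated counts were 2.00, 1.16 and 0.989 in naïve brain, 40.4, 40.0 and 53.9 in CT2A, and 82.7, 31.5 and 50.0 in GL261. They were 61.7, 217 and 66.4 in 005 and 7.88, 36.1 and 22.0 in Mut3. All the tumor libraries lay above all the naïve libraries in CPM, and the libraries of Mut3 lay below those of CT2A, GL261 and 005. These separations are descriptions, with no share of all genes beside them.

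The log2 fold change of Acp5 against naïve brain was 4.19 ± 0.93 in CT2A, 4.83 ± 0.93 in GL261 and 2.89 ± 0.95 in Mut3 (SE), with edgeR adjusted p of 0.00400, 0.00293 and 0.0253. In pooled CPM these were 18.2-fold, 25.9-fold and 7.09-fold, from 4.15 counts over the naïve libraries. The calls in CT2A and GL261 held with each library left out. The call in Mut3 was lost without any one of the naïve libraries or without Mut3 replicate 2, with edgeR adjusted p from 0.0598 to 0.102, and on log2(TPM + 1) with limma (0.336). Over all the alternatives the adjusted p in Mut3 ran from 0.00987 to 0.336. This range leaves out the fit of only the Mut3 and naïve libraries, where Acp5 did not pass the filter on low counts. In 005 the pooled level was 32.7-fold above naïve brain, as a description, with replicate 2 at 26.2 CPM, 4.10-fold above the next library. Without replicate 2 it was 16.4-fold above naïve brain and 0.632 times the level of GL261, and without replicate 3 it was 47.1-fold and 1.82-fold above them.

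Acp5 was 1 of 4 tested members called higher in CT2A and in GL261, where 19.0% and 14.6% of all genes tested were called higher. Acp5 and Atp6v0d2 were 2 of 4 in Mut3, where 17.9% were. Between the tumors without 005, 0 of the 4 members were called in edgeR's test, beside 7.77% of all genes tested for CT2A against GL261, 12.8% for CT2A against Mut3 and 17.2% for GL261 against Mut3. At an unadjusted p under 0.05 there was 1 member for CT2A against Mut3 (Atp6v0d2) and 1 for GL261 against Mut3 (Acp5), and DESeq2 called the same 2 differences. Acp5 differed by 1.94 ± 0.71 between GL261 and Mut3 (log2, SE; edgeR adjusted p = 0.0699). This difference was called without 005 replicate 2 (edgeR adjusted p = 0.0321), 005 replicate 3 (0.0453) or Mut3 replicate 2 (0.0489) and with DESeq2 (0.0485), and over all the alternatives the adjusted p ran from 0.0321 to 0.242. CT2A against Mut3 gave 1.30 ± 0.70 and CT2A against GL261 −0.64 ± 0.68 (log2, SE).

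**Figure D3:**
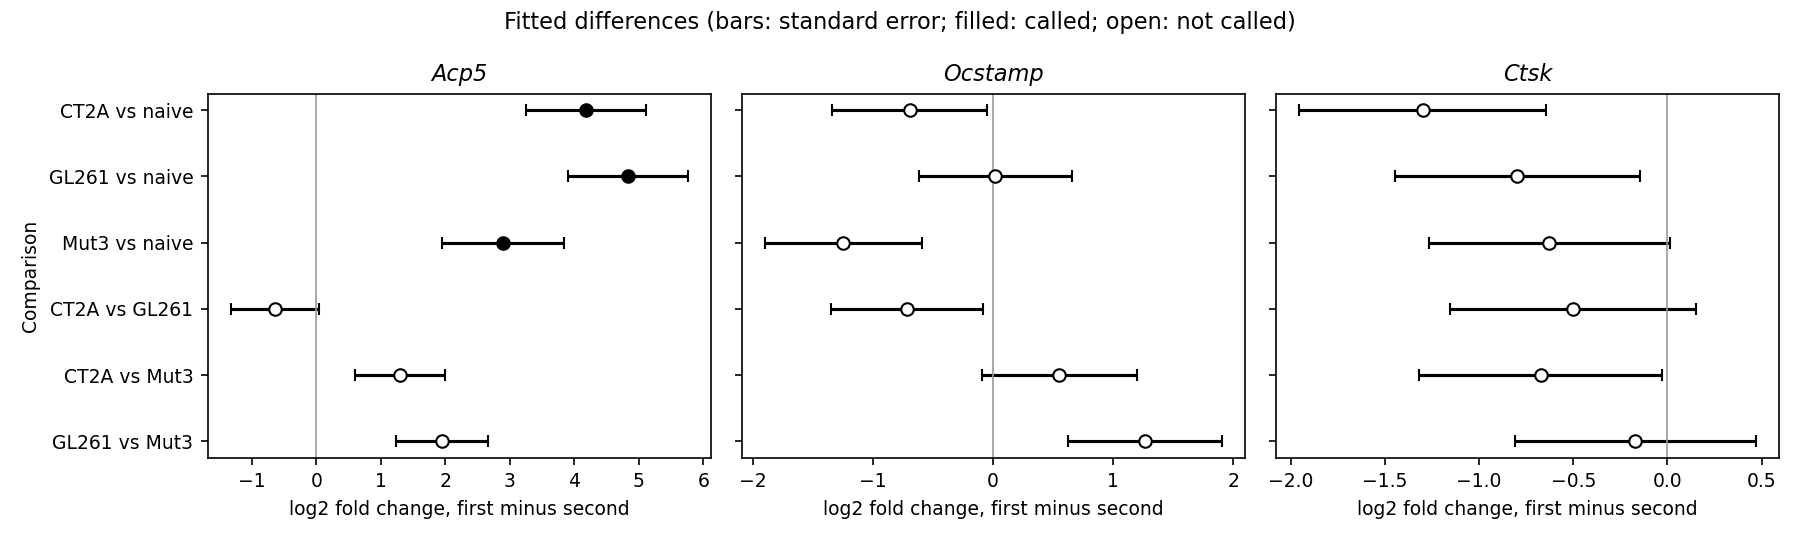
Fitted log2 fold changes of Acp5, Ocstamp and Ctsk, the first group of each comparison minus the second, with their standard errors as bars, for the 6 comparisons without 005. Filled points are called by edgeR, and those are the 3 comparisons of Acp5 with naïve brain (4.19, 4.83 and 2.89), while open points are not called.

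Acp2, the other lysosomal acid phosphatase, gave a reference of the same enzyme class. On TPM, Acp5 was at most 5.58% of Acp2 in naïve brain and between 56.0% and 153% in CT2A, 70.4% and 168% in GL261, 56.4% and 229% in 005, and 25.2% and 103% in Mut3. Acp2 itself ranged from 0.911 to 4.49 TPM over the libraries. Acp5 exceeded Acp2 in 2 CT2A, 1 GL261, 2 005 and 1 Mut3 libraries.

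For Acp5 the RefSeq promoter table on GRCm38 holds 3 starts. The 250 bases before the most downstream of them, chr9:22130599-22130848 on the minus strand, are shown because they hold, in capitals, the letters CACATG. On the other strand these read CATGTG, the core that the MITF and TFE transcription factors are known to bind.
Acp5: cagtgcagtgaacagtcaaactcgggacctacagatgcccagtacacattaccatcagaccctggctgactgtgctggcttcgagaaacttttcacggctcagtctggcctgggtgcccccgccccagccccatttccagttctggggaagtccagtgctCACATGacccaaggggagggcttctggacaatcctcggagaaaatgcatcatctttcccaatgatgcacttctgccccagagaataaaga
CATGTG was found on either strand in 12.3% of 32851 promoter windows of that length. The windows of the other Acp5 starts (chr9:22135747-22135996 and chr9:22131866-22132115) held none of the motifs searched, which were this core, the related E-box CACGTG, the AP-1 site TGANTCA and the PU.1 core GAGGAA, each on both strands and with no overlap among the matches printed.

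Ctsk, in contrast to Acp5, was already present in naïve brain. Its estimated counts were 17.5, 6.96 and 32.3 in naïve brain, 22.4, 10.7 and 8.88 in CT2A, and 12.1, 16.7 and 22.5 in GL261. They were 28.4, 53.5 and 98.0 in 005 and 24.7, 40.0 and 12.7 in Mut3. In CPM the naïve libraries, from 1.74 to 8.65, overlapped all the tumors, and naïve replicate 3 was the highest of the 15.

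No Ctsk difference was called. Against naïve brain the log2 fold change was −1.30 ± 0.66 in CT2A, −0.80 ± 0.65 in GL261 and −0.63 ± 0.64 in Mut3 (SE), with edgeR adjusted p of 0.123, 0.369 and 0.454. On TPM the CT2A libraries (0.177 to 0.521) and the GL261 libraries (0.389 to 0.589) lay below all the naïve libraries (0.746 to 2.32). In CPM both groups overlapped naïve brain. Relative to naïve brain, the TPM scale lay 0.98 (CT2A) and 0.81 (GL261) log2 units below the CPM scale, so the separation depends on the scale. No share of all genes stands beside it. On log2(TPM + 1) with limma CT2A had an adjusted p of 0.0283 with a difference of −0.81, under the fold needed for a call. Without naïve replicate 3 the value became 0.01 in GL261 and 0.18 in Mut3. In 005 Ctsk stood 0.24 above naïve brain on log2 CPM but below it on mean TPM (1.28 ± 0.793 against 1.39 ± 0.829, SD, n = 3), so its direction depends on the scale.

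Within 005, Ctsk and Atp6v0d2 peaked in different mice. Ctsk was 2.88, 6.40 and 6.98 CPM in replicates 1 to 3, with its highest value in replicate 3, while Atp6v0d2 was highest in replicate 2. Replicate 3 held 17.8% mitochondrial counts, and its neuron and oligodendrocyte markers summed to 6759 CPM, against at most 6698 in naïve brain. It also had the highest sum of the 6 bone marrow granulocyte markers, 29.6 CPM against 1.34 and 5.07, and its 7 bone-forming cell markers summed to 18.7 CPM against 31.7 and 34.3. The part of these cells in the Ctsk value was not tested. Without replicate 3 the pooled Ctsk level of 005 was 1.01-fold that of naïve brain, against 1.25-fold with it. The 6 chondrocyte and fibroblast markers summed to 81.6 to 137 CPM in 005, within or below the 95.7 to 159 CPM of naïve brain.

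Among 10 lysosomal cathepsins (Ctsa, Ctsb, Ctsc, Ctsd, Ctsf, Ctsh, Ctsk, Ctsl, Ctss and Ctsz), Ctsk ranked ninth or last on TPM in each library. It made up 0.243% to 0.894% of their summed TPM in naïve brain, 0.0447% to 0.116% in CT2A, 0.0571% to 0.101% in GL261, 0.101% to 0.295% in 005 and 0.0871% to 0.425% in Mut3. All CT2A and GL261 shares lay below all the naïve shares.

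The 250 bases before the Ctsk start, chr3:95498960-95499209 on the plus strand of GRCm38, are shown beside the Acp5 window because the levels of these genes differed.
Ctsk: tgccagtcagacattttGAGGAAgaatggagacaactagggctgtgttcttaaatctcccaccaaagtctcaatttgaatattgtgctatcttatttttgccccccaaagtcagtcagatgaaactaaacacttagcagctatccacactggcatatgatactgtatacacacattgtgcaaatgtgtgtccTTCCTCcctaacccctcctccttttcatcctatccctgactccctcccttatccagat
The capitals mark GAGGAA, the core bound by the macrophage factor PU.1, once on each strand, a motif held by 23.3% of the 32851 windows. None of the other motifs searched was found in this window. Of the 5 genes, 2 had an entry in the promoter table.

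The levels of the macrophage markers differed between the tumors. Of 9 markers (Adgre1, Itgam, Fcgr1, Csf1r, Cd68, Mrc1, Aif1, Lyz2 and Msr1), 7 rose in CT2A, 7 in GL261 and 8 in 005, while in Mut3 2 fell and 7 had no call. Of all genes tested, 19.0% (CT2A), 14.6% (GL261), 11.6% (005) and 17.9% (Mut3) were called higher, and 19.8% were called lower in Mut3. Cd68, a lysosomal membrane protein of macrophages, rose by 1.73 ± 0.48 in CT2A, 2.37 ± 0.49 in GL261 and 2.67 ± 0.50 in 005 (log2, SE). The summed markers ran from 254 to 274 CPM in naïve brain, 891 to 1298 in CT2A, 1215 to 2545 in GL261, 1789 to 11194 in 005 and 269 to 990 in Mut3. The Mut3 falls were those of Itgam and Csf1r, and 1 of them remained without naïve replicate 2 or any one of the CT2A, GL261 and Mut3 libraries. On log2(TPM + 1) with limma 0 markers rose in CT2A (7 with edgeR and up to 8 under the other settings) and 4 in GL261, and in the fit of only those samples 2 rose in 005. Without 005 replicate 2, 005 replicate 3 or Mut3 replicate 1, 1 marker was called higher in Mut3.

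Set against these markers, Acp5 and Atp6v0d2 gave different orders of the groups. Each gene's TPM was expressed as a percent of the geometric mean TPM of the 9 markers (0.01 added). Atp6v0d2 reached 6.35% to 22.4% in Mut3 and 7.61% to 21.1% in 005, against at most 1.93% in GL261, 0.900% in CT2A and 0 in naïve brain. The Mut3 and 005 libraries overlapped on this measure, and all of them lay above all CT2A and GL261 libraries. For 005 this follows the choice of the gene, and no share of all genes stands beside it. The marker mean was 0.841 to 1.91 TPM in Mut3, against 3.47 to 4.20 in CT2A and 4.85 to 6.62 in GL261. A low marker mean raises the ratio, which therefore does not give a level per macrophage. Against Cd68 alone, an alternative chosen after seeing the data, Mut3 (0.407% to 2.16%) and 005 (0.867% to 2.94%) again overlapped and lay above GL261 (at most 0.196%) and CT2A (at most 0.116%). Acp5 instead lay in a similar range in the tumors, 35.4% to 40.0% in CT2A, 28.8% to 60.9% in GL261, 24.4% to 42.2% in 005 and 27.1% to 75.7% in Mut3, with 5.46% to 8.46% in naïve brain. With 3 mice per group, an exact permutation test of such a ratio cannot fall below p = 0.10, and none was made.

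**Figure D4:**
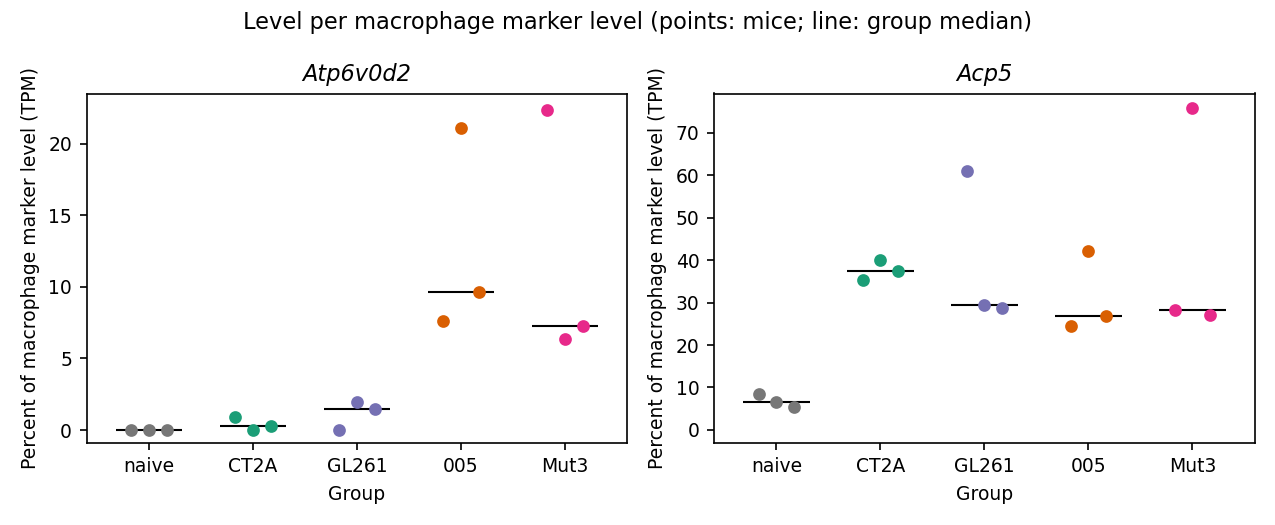
TPM of Atp6v0d2 and Acp5 as a percent of the geometric mean TPM of 9 macrophage markers, for each mouse (points) with the group median as a line. For Atp6v0d2 the 005 and Mut3 libraries (7.61% to 21.1% and 6.35% to 22.4%) lie above the rest, whereas for Acp5 the 4 tumors overlap and lie above naïve brain. The position of 005 follows the choice of Atp6v0d2, and that of Mut3 is raised by its low marker mean.

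Across the 15 libraries, the genes whose log2 CPM (prior count 2) was most like that of Acp5 were Gm49339, Ms4a6d, H2-K1, Samhd1, Sirpb1c, Gngt2, Fcgr4, Slamf7, Ctsc and Ms4a6c, with Pearson r from 0.954 to 0.970. Ms4a6d and Ms4a6c are membrane proteins of macrophages, Fcgr4 is an activating Fc receptor, and Ctsc is a lysosomal dipeptidyl peptidase. Among the 12 tumors alone their r with Acp5 was 0.865 to 0.959. Over the 15 libraries Cd68 had r = 0.937 with Acp5 (Spearman 0.950) and ranked 36 of 17480 genes. These correlations describe the libraries, in which the 3 mice of a group share a tumor line and naïve libraries are the shallowest.

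The 10 genes most like Atp6v0d2 were others: AI839979, Hif1a, C1galt1, Fzd1, Kcnj8, Ifnar1, Rif1, Scaf11, Col15a1 and Ppp1r35, with r from 0.820 to 0.907. Hif1a encodes the oxygen-regulated transcription factor HIF-1α (r = 0.878, Spearman 0.902), C1galt1 an enzyme of O-glycan synthesis, Fzd1 a Wnt receptor and Ifnar1 a chain of the type I interferon receptor. Without 005 replicate 2, a choice made after seeing the data, 4 of the 10 stayed among the 10 most like it, and with the 12 tumors alone 2 did (AI839979 and Fzd1). Atp6v0d2 had r = 0.457 with Cd68, 0.469 with Acp5 and 0.347 with Ctsk over the 15 libraries. Over the 12 tumors its r was 0.174 with Cd68, 0.087 with Acp5 and 0.645 with Ctsk.

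Ctsk was most like Il4i1, Sema4d, Gsta4, Kcnk10, Aph1c, 2010315B03Rik, Gm29394, Ssbp2, Srgap1 and Ecel1, with r from 0.753 to 0.803, and had r = −0.02 with Acp5 and 0.070 with Cd68. With the 12 tumors alone, 0 of these 10 stayed among the 10 most like it. Ocstamp was most like Nos3, Gm43879, Pgbd1, Tor2a, Trim66, Psd4, Carns1, Gm17201, B4galt5 and Fabp12 (r from 0.759 to 0.878), with no library above 26.4 counts of Ocstamp. None of the 4 ranked members was among the 10 most like another.

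**Figure D5:**
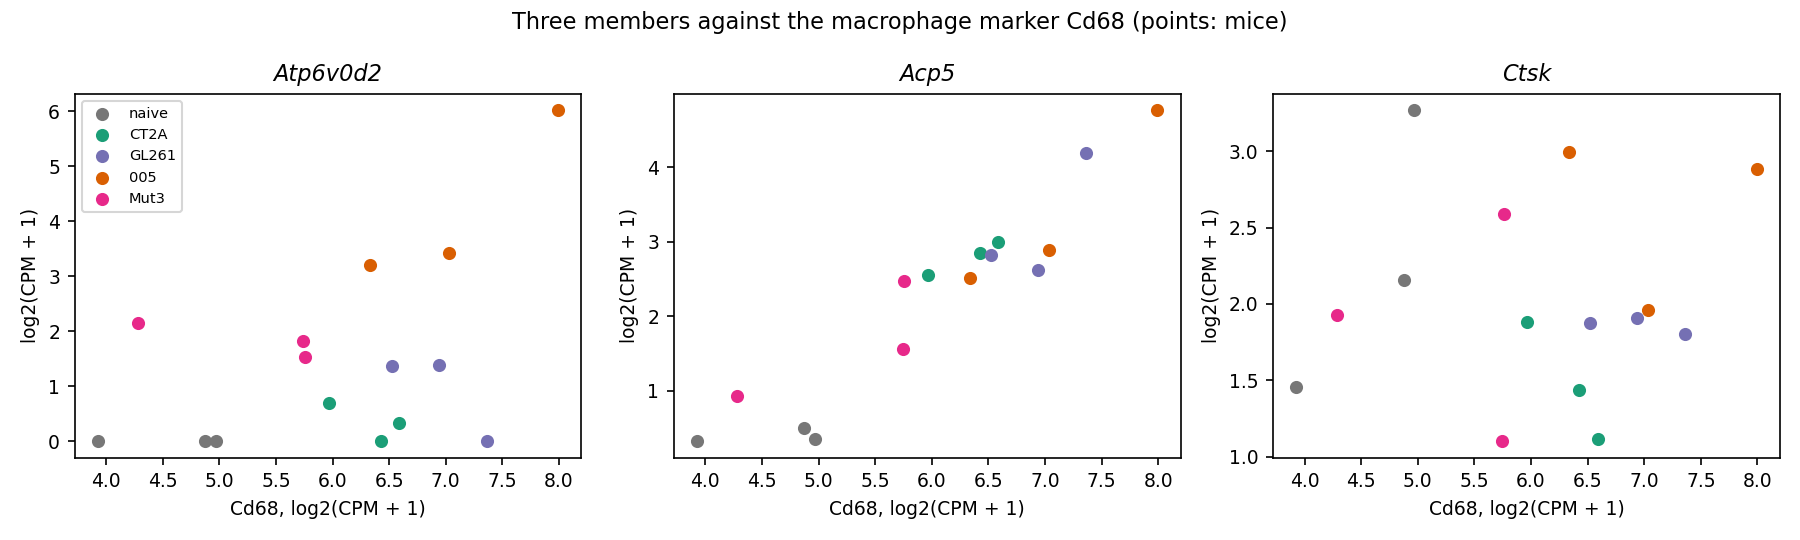
Atp6v0d2, Acp5 and Ctsk against the macrophage marker Cd68, each as log2(CPM + 1), for the 15 mice (points, coloured by group). Acp5 follows Cd68 across groups (r = 0.937 on log2 CPM), and Ctsk shows r = 0.070. Atp6v0d2 has all 005 and Mut3 points above all CT2A and GL261 points, which for 005 is what the gene was chosen for. The Mut3 points lie at lower Cd68 than those of CT2A and GL261, so Mut3 is not matched to them on Cd68.

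Of the other genes known from osteoclasts, some were at or near 0 in all groups and others were called against naïve brain. Calcr, the calcitonin receptor that defines mature osteoclasts, had 0 counts in 14 libraries and 0.943 in a single 005 library. Oscar, an osteoclast co-receptor, was at most 0.339 TPM, a value of naïve brain, and Tnfsf11, which encodes RANKL, at most 0.102. Tnfrsf11a, which encodes its receptor RANK, ran from 0.019 to 0.289 TPM over the libraries. With Calcr, Dcstamp and Oscar at or near 0, the 5 genes are referred to by name.

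Of the 9 osteoclast transcription factors, 1 rose in Mut3, 2 rose in CT2A, and 3 rose in each of GL261 and 005. Beside these rises and those of the ligands and receptors stand 17.9% (Mut3), 19.0% (CT2A), 14.6% (GL261) and 11.6% (005) of all genes tested. Called lower were 19.8% (Mut3), 20.2% (CT2A), 7.77% (GL261) and 1.05% (005). Fos fell in CT2A (−1.34 ± 0.49, SE), a call lost without naïve replicates 1 or 2, CT2A replicates 2 or 3, GL261 replicates 1 or 2, or Mut3 replicate 1. Tfec, a TFE family member, was at 0 counts in naïve brain and reached 1.21 TPM in 005, 0.251 in Mut3, 0.227 in GL261 and 0.182 in CT2A, and was called in CT2A, GL261 and 005 (edgeR adjusted p = 0.0417, 0.0420 and 0.0178). Nfatc1, the master regulator of osteoclast differentiation, was the 1 factor called in Mut3 (2.32 ± 0.81, SE; edgeR adjusted p = 0.0339), and 005 gave 2.54 ± 0.81 (0.0542). The Mut3 count was 0 without naïve replicate 1, naïve replicate 3 or Mut3 replicate 3, and 2 without CT2A replicate 1. The CT2A count was 0 without naïve replicate 1 or CT2A replicate 3, and 1 without naïve replicate 3, CT2A replicate 2, GL261 replicates 2 or 3, or 005 replicate 1. The GL261 count was 1 without naïve replicates 1 or 3 or GL261 replicates 2 or 3. Of the 8 tested ligands and receptors, 3 rose in CT2A, 5 in GL261 and 4 in 005. The GL261 rises were Fcer1g, Tnfrsf11b (2.91 ± 0.56, log2, SE), Tyrobp, Trem2 and Csf1. These counts do not separate genes that favour osteoclasts from genes that oppose them. In GL261 1 fell (Il34, lost without GL261 replicate 1). In Mut3 2 fell, the microglial growth factor Il34 (−3.33 ± 0.43) and Csf1r (−1.15 ± 0.43, SE). The GL261 count of rises was 3 without naïve replicate 3. The Mut3 count of falls was 1 without naïve replicate 2, any CT2A or GL261 library, or Mut3 replicates 1 or 2. Fcer1g, an adaptor of immune receptors, rose by 2.50 to 3.18 in CT2A, GL261 and 005.

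Of the 11 osteoclast effectors, 10 were tested. Beside their calls stand the shares of all genes tested, 19.0% (CT2A), 14.6% (GL261), 17.9% (Mut3) and 11.6% (005) called higher. The shares called lower were 20.2% (CT2A), 7.77% (GL261), 19.8% (Mut3) and 1.05% (005). Mmp14, a membrane metalloprotease, rose by 3.53 ± 0.80 in CT2A, 2.84 ± 0.79 in 005 and 2.10 ± 0.77 in Mut3 (log2, SE), and Mmp9 by 2.12 ± 0.66 in 005. Car2, the carbonic anhydrase that supplies protons to the pump and is also made by oligodendrocytes, fell by 2.01 ± 0.56 in CT2A and 3.64 ± 0.60 in Mut3. Snx10, a sorting nexin of osteoclasts, fell by 1.47 ± 0.28 in CT2A, 1.02 ± 0.27 in 005 and 1.82 ± 0.28 in Mut3. The 005 calls of this list were the most dependent on single libraries. The 2 rises there fell to 0 without any one naïve library or 005 replicate 2, and to 1 without any other library but 005 replicate 3. The fall there was lost without naïve replicates 1 or 3, CT2A replicate 2, GL261 replicate 1, 005 replicate 1, or Mut3 replicates 1 or 3, and without 005 replicate 3 there were 2. The 1 Mut3 rise was lost without any naïve or GL261 library, CT2A replicates 2 or 3, or Mut3 replicate 1, and the 3 falls in CT2A became 1 without CT2A replicate 2. The bone-forming marker Ibsp reached 0.227 TPM in 005 and Sp7 was highest in naïve brain (0.798), while Bglap reached 19.0 TPM in Mut3 and 6.87 in 005. Bglap has near-identical neighbouring copies, between which reads could be split, and was not called.

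Of the 23 other lysosomal hydrolases and membrane proteins, 4 rose in Mut3, 11 rose in CT2A, 13 rose in 005 and 16 rose in GL261, and 3 fell in both CT2A and Mut3. Of all genes tested, 17.9% (Mut3), 19.0% (CT2A), 11.6% (005) and 14.6% (GL261) were called higher. Called lower were 19.8% (Mut3), 20.2% (CT2A), 1.05% (005) and 7.77% (GL261). The median difference of the 23 genes from naïve brain on the log2 scale was 0.90 (CT2A), 1.54 (GL261), 1.33 (005) and 0.30 (Mut3), against −0.04, −0.08, 0.01 and 0.11 over all genes tested. Ctsc rose by 3.80 ± 0.72 in CT2A, 3.91 ± 0.73 in GL261 and 4.72 ± 0.75 in 005, and the macrophage cathepsin Ctss by 1.95 ± 0.53, 3.25 ± 0.56 and 3.64 ± 0.57 (log2, SE). Npc2, a cholesterol carrier of the lysosome, and Cd63, a tetraspanin of its membrane, rose in all the tumors, by 1.36 to 3.00 and by 1.93 to 3.19. Ctsf, Gaa and Psap fell in CT2A and Mut3, by 1.16 to 2.49. The Mut3 rises numbered 2 without Mut3 replicate 2 or 3, and the CT2A falls 1 without naïve replicate 2 or CT2A replicate 2. Without 005 replicate 3, 17 genes of the list rose and 2 fell in 005, and in the fit of only those samples 4 rose. On log2(TPM + 1) with limma the rises numbered 5 (CT2A), 8 (GL261), 7 (005) and 1 (Mut3). Mcoln1, a lysosomal calcium channel, fell in CT2A (−1.60 ± 0.38) and Mut3 (−1.28 ± 0.37, SE), as 1 of 3 tested lysosomal regulators in each, and the Mut3 call was lost without naïve replicate 2. Its fall in GL261 (−1.23 ± 0.37) was lost without naïve replicates 1 or 2, CT2A replicate 2, any GL261 library, or Mut3 replicates 1 or 3.

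Markers of other cells of the tissue gave calls in some lists and few in others. Beside them stand 20.2% (CT2A), 7.77% (GL261), 19.8% (Mut3) and 1.05% (005) of all genes tested called lower. Called higher were 19.0% (CT2A), 14.6% (GL261), 17.9% (Mut3) and 11.6% (005). Of 6 microglia markers 3 fell in CT2A (1 without CT2A replicate 2) and 4 in Mut3, and without 005 replicate 3, 3 fell in 005. Of 6 dendritic cell markers Ccr7 rose in 005, where 3 markers rose without 005 replicate 3. Ccr7 was also called in GL261 and Batf3 in Mut3, with no marker called there without naïve replicate 3 (GL261), or without naïve replicates 1 or 2 or Mut3 replicate 3 (Mut3). In GL261 2 markers were called without CT2A replicates 1 or 3 or 005 replicate 2. The call of Ccr7 in CT2A (edgeR adjusted p = 0.0486) was lost without any one of 11 libraries, all but CT2A replicate 2, 005 replicate 1, and Mut3 replicates 2 and 3. The eosinophil granule gene Prg2 was the 1 tested gene of its list and was called higher in 005, a call lost without any one naïve library. In 005 the list was highest in replicate 3 (18.9 CPM against 1.24 and 5.43). The bone-forming cell markers gave calls that rested on single libraries. Runx2, a bone-forming factor, was called higher in CT2A (2.13 ± 0.73), but not without naïve replicates 1 or 3 or CT2A replicates 2 or 3. In 005 (2.65 ± 0.73, log2, SE) its call was lost without any naïve library or 005 replicates 1 or 2. Alpl was called lower in GL261, but not without naïve replicates 1 or 2, GL261 replicates 2 or 3, or any Mut3 library. The cartilage collagen Col2a1 rose in GL261 (6.18 ± 0.45) and Mut3 (5.09 ± 0.43, log2, SE). In all, 1 of the 6 chondrocyte and fibroblast markers rose in CT2A and 1 in GL261, and 2 rose and 1 fell in Mut3. The Mut3 fall was lost without naïve replicates 1 or 3 or Mut3 replicate 1, and 2 fell without Mut3 replicate 2.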

How the data were processed

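RNA of 15 samples (3 mice per group) was analysed. The authors aligned reads with STAR (2.4.2a per the submitters' processing notes, which also name Salmon, DESeq2 1.18.1 and mm10) and deposited estimated counts and TPM per gene. The annotation release is not given in the sources used here. The ratio of count to TPM was a gene factor times a sample factor (largest log2 residual 9.61e-10 over 4644 genes), so the tables are not independent. Of 46679 gene identifiers, 46201 matched GENCODE M21. Deposited estimated counts were rounded and tested with edgeR 4.0.16 in R 4.3.3 (TMM, filterByExpr, quasi-likelihood test, two-sided, 1 mean per group, no covariate), with Benjamini-Hochberg adjustment over 17481 genes. P-values measure the spread between these mice. The steps were tested on simulated data.

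The 5 members and the 16 other gene lists (144 genes with the members counted) were chosen with earlier results of these data known. Every member is given in each sample, list genes by the largest called changes (up to 3 per list and tumor) and as defining genes, and the 10 genes most like each tested member by Pearson correlation of log2 CPM. Not all list genes that met this rule are named in the results, with Irf8, Prdm1 and P2ry12 among those left out. Genes outside this rule (Atp6v0d1, Cd68, Sirpa, Mcoln1, Acp2, Bglap and Csf1r among them) were named after their values were seen. Alternatives were DESeq2 1.42.0, library size without TMM, other filters, only the samples compared, a replicate block, log2(TPM + 1) with limma 3.58.1, no fold threshold, a prior count of 2 and each library left out. The total counts, given with the results, limit the precision, and floors of 3 counts cover counting error only.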

Additional observations from a re-analysis of the deposited data

How the results depend on the processing

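Of the 4 tested members, 1 was called in CT2A, 1 in GL261 and 2 in Mut3 against naïve brain, and 0 between those tumors. DESeq2 called 2 in GL261, 1 for CT2A against Mut3 and 1 for GL261 against Mut3. Without a filter on low counts there were 2 in GL261 and 1 for CT2A against Mut3. A fit of only the samples compared called 1 in Mut3 and 1 for CT2A against Mut3, and log2(TPM + 1) with limma called 0 in Mut3. In that fit of Mut3 and naïve brain alone, Acp5 did not pass the filter on low counts and was not tested. With each library left out, the count was 1 to 2 in GL261, 1 to 2 in Mut3 and 0 to 1 for GL261 against Mut3. A filter of 10 counts in every sample left no member to test. The sign of uncalled values changed for Ocstamp in GL261 against naïve brain, which was −0.086 with library size, −0.028 with no filter, −0.061 with the replicate block, −0.15 on log2(TPM + 1) and −0.32 to 0.48 with each library left out. With each library left out, Ctsk ran from −1.05 to 0.012 in GL261 and −1.22 to 0.18 in Mut3 against naïve brain and from −0.43 to 0.42 for GL261 against Mut3, and Acp5 from −0.93 to 0.064 for CT2A against GL261. The causes were not tested. With the replicate block, 1, 1, 2, 0, 0 and 0 members were called in the 6 comparisons, and no call of a member changed. Samples with the same number are different mice, and their deviations from the group means had correlations from −0.331 to 0.262 over 30 pairs, with 1 over 0.1, so the numbers do not pair them. Of 871 other values of single members, 833 were counted as unchanged. In the tested comparisons this meant the same direction and side of the threshold. In the comparisons given as descriptions, without a test, neither was required, so the 833 values are not a count of kept calls. Of 3034 values for the gene lists, 2665 stayed within 1.5 times the main count. Dcstamp, at most 14.9 counts, is limited by depth.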
